A study of Mus musculus with 4 samples.

Results

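The 4 melanocyte lines of the series were compared by the genotype in their sample titles, with lines 13d and 10d as bcat* and lines 14d and 9v as WT, so that all 4 of its arrays were used and each side held 2. bcat* mice are C57BL/6J mice with a transgene for a stable, transcriptionally active mutant of β-catenin in the melanocyte lineage, and WT mice are C57BL/6J mice without it. Each line was established in culture from skin melanocytes of pups aged 3 days, was grown in Ham's F12 medium with serum and 200 nM TPA, a phorbol ester on which melanocytes depend in culture, and was harvested at 80% confluency. Each line was measured on 1 Affymetrix array of total RNA, with RNA integrity numbers from 9.7 to 9.9. Lines 13d and 14d are female and lines 10d and 9v are male by their labels, so that each side held 1 line of each sex, whereas the methods of the article describe the mice as male. No array repeats a line, so the spread within a side is a spread between lines, each a single culture, and any p-value measures only that.

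The article on these cells gives the genotypes of lines 13d and 14d the other way round, with 13d as WT and 14d as bcat*, whereas both sources give 10d as bcat* and 9v as WT. Every result is therefore stated for the labelled genotypes, and the other reading is given beside the main counts. The sex labels were borne out by the arrays, but they cannot tell the readings apart, because 13d and 14d are both female. Xist, the RNA of the inactive X chromosome, had intensities of 2124 in 13d and 1768 in 14d and of 4 in both 10d and 9v. The Y-linked gene Eif2s3y had intensities of 1088 in 10d and 690 in 9v and of 13 in both female lines. Kdm5d and Uty, also Y-linked, were under 32 in 13d and 14d and between 117 and 249 in 10d and 9v.

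β-catenin has roles in cell adhesion, where it binds cadherins, and in Wnt signalling, where the stabilised protein enters the nucleus and switches on genes through Tcf and Lef factors. Melanocytes make melanin in melanosomes, organelles related to lysosomes, which kinesin and dynein motors move along microtubules. Dynlt3, the gene that the study followed up, encodes a light chain of cytoplasmic dynein, the motor that moves cargo towards the cell centre.

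The deposited values are intensities on a linear scale, read from the values since no source states it. Each of 18193 genes was read from its brightest probe set by mean log2, and values under 32 were raised to 32. The 9415 genes at 32 or more on at least 1 array were tested. A gene was called separated when the lower line of the higher side was at least 2-fold above the higher line of the lower side. That ratio between the nearest lines of both sides is its gap. The share of probe sets at 32 or more was between 35.8% and 36.2% in all 4 lines.

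All lines had the markers of melanocytes. Of 10 melanocyte markers, 9 were at 32 or more in every line and Ednrb was at 29 in each, and the summed intensity of the 10 was between 275273 and 290252. Of 12 fibroblast markers, between 0 and 2 were at 32 or more, with Col1a1, Col3a1 and Dcn under 32 in every line. Krt10 was the 1 keratinocyte marker of 9 at 32 or more, and Krt5 and Krt14 were at 11 or less. No endothelial marker of 4 reached 32. Of 6 leukocyte markers, Lyz2 and Csf1r reached 32 in every line, and Ptprc was at 5 or less. Lyz2 was at 9580 in 14d and between 204 and 334 in the other lines. Of 8 glial markers, 3 reached 32 in each bcat* line and 2 in each WT line, and Mbp and Gap43 were under 32 in all 4.

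No gene passed the test across lines. With limma, 0 of 9415 genes (0.00%) had an adjusted p under 0.05, and the smallest adjusted p was 0.0721. At an unadjusted p under 0.05 there were 754 genes, 291 of them higher and 463 lower in bcat* lines. An adjusted p under 0.1 held for 17 genes, all of them separated, which is a second reading of the same values. Of these 17, Klhdc10 and Id4 alone were above the level to which dim values were raised in every line. Most of the others, Klf14 and Atp6v0d2 among them, had both lines of the lower side raised to that level. By construction such a side has no spread, which lowers the p, so this count is not read as a result. For a single gene, an exact permutation test of 2 arrays against 2 cannot go below a two-sided p of 0.333. The genes below are therefore a description of which genes set both lines of a side apart from both lines of the other.

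The labelled sides were separated by 282 of 9415 genes (3.00%). In both bcat* lines 96 genes were higher (1.02%) and 186 were lower (1.98%). Separation asks for a difference in all comparisons of a bcat* with a WT line, and for single pairs of lines the counts were higher. Lines of the same label were at least 2-fold apart at 1351 genes for 13d and 10d, and at 1414 genes for 14d and 9v. Of the 96 higher genes, 53 were at 32 or more in all 4 lines, 28 were under 32 in both WT lines and 15 in 1 WT line. Of the 186 lower genes, 111 were at 32 or more in all lines, 37 were under 32 in both bcat* lines and 38 in 1. With no limit on the gap, the sides did not overlap at 1737 genes higher and 1834 genes lower in bcat* lines, 37.9% of those tested. The median gap of separated genes was 2.77-fold for the higher and 2.60-fold for the lower genes, and gaps of at least 8-fold were found for 13 and 12 genes, respectively. Where a separated gene had over 1 probe set at 32 or more, all of them set the sides apart in the same direction for 33 of 39 higher genes and 58 of 77 lower genes.

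Taken by sex, the female pair of lines (13d over 14d) was at least 2-fold higher at 1010 genes and lower at 804. The male pair (10d over 9v) was higher at 717 and lower at 915. These 2 pairs thus differed at somewhat more genes than the pairs within a label, which are of unlike sex. The pairs across both label and sex were not counted. Both pairs were at least 2-fold higher at 165 genes and lower at 274, and 177 genes went opposite ways. The correlation of both pairs over the genes tested was 0.19, which is across genes that are not independent replicates and describes these arrays only. With 13d and 14d paired across sex instead (13d over 9v and 10d over 14d), it was also 0.19.

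**Figure D1:**
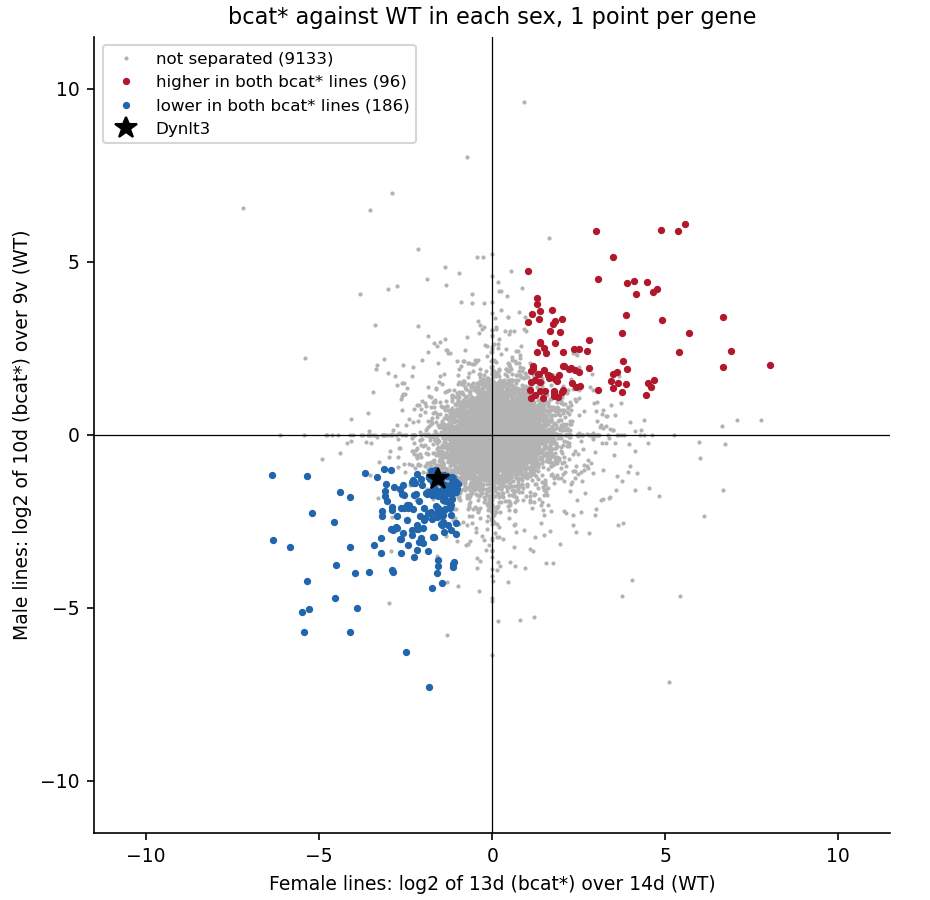
Log2 ratio of the labelled bcat* line over the labelled WT line in the female lines (x axis, 13d over 14d) and in the male lines (y axis, 10d over 9v), 1 point for each of 9415 genes with values under 32 raised to 32. The 96 red and 186 blue points are the genes higher or lower in both bcat* lines, and the star is Dynlt3.

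Under the genotypes of the article, with 13d as WT and 14d as bcat*, 38 genes were separated higher and 69 lower in bcat* lines, and limma again called none, with 351 genes at an unadjusted p under 0.05. A gene that sets 13d and 10d apart from 14d and 9v cannot also set 14d and 10d apart from 13d and 9v, and 0 genes were separated under both readings.

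Dynlt3 was lower in both labelled bcat* lines in each of its 4 probe sets. Its brightest probe set (1459854_s_at) had intensities of 4055 in 13d and 4764 in 10d, against 11963 in 14d and 11518 in 9v. The lines of a side lay close together and the sides did not overlap. The mean log2 difference was -1.42 (SE 0.23, 95% interval -2.06 to -0.77), a 2.67-fold lower level in bcat* lines, with an unadjusted p of 0.0039 and an adjusted p of 0.435 by limma over all genes. Its gap was 2.42-fold.

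The other probe sets of Dynlt3 gave the same order of lines. Probe set 1449929_at had intensities of 2105 and 2368 in 13d and 10d and of 6950 and 5695 in 14d and 9v. Probe set 1420614_at had 1547 and 1636 against 5128 and 4335, and probe set 1449928_at had 1006 and 1221 against 3574 and 3282. Gaps ranged from 2.40-fold to 2.69-fold over the 4 probe sets, and in each of them 13d was the lowest and 14d the highest line. Dynlt3 was lower in 2 of 2 pairs of the same sex, by a log2 difference of -1.56 in the female pair and -1.27 in the male pair.

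**Figure D2:**
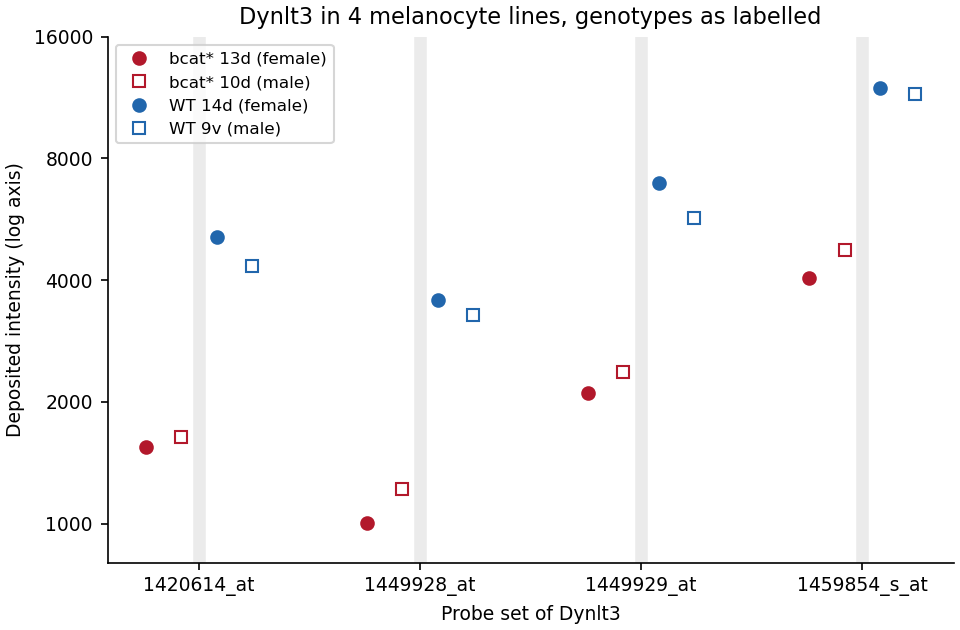
Deposited intensity of Dynlt3 (log axis) in the 4 lines for each of its 4 probe sets, with red for labelled bcat*, blue for labelled WT, circles for female and squares for male lines. In every probe set both bcat* lines lie below both WT lines, from 1006 to 4764 against 3282 to 11963.

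With the genotypes of the article, Dynlt3 did not separate the sides, because 13d, then a WT line, had the lowest level of all and 14d, then a bcat* line, the highest. Its log2 difference was then 0.14, with an adjusted p of 0.992 by limma. What remains the same under both readings is the male pair, with 4764 in 10d and 11518 in 9v.

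The upstream sequence of Dynlt3 is shown because the transgene acts through Tcf and Lef factors, beside those of the genes with the widest gap in each direction for which RefSeq gave a single start site. Each is the 250 bases before the start site in GRCm38.p6, 5′ to 3′ on the strand of the gene. The capitals mark a core Tcf/Lef motif, which was searched on both strands as CTTTGAA or CTTTGAT or CTTTGTA or CTTTGTT. Dynlt3 lies at chrX:9662984-9663233 (minus strand), Astn1, which was higher in bcat* lines, at chr1:158362054-158362303 (plus strand), and Gpm6b, which was lower, at chrX:166238693-166238942 (plus strand).
Dynlt3: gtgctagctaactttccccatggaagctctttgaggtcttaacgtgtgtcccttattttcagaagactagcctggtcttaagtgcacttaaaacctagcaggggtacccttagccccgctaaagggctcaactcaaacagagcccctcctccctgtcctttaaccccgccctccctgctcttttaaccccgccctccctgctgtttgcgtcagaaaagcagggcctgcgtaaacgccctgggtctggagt
Astn1: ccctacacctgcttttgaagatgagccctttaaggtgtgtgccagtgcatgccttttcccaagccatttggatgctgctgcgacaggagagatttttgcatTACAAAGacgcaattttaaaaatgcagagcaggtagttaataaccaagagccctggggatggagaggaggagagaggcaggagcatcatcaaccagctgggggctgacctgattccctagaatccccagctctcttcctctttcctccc
Gpm6b: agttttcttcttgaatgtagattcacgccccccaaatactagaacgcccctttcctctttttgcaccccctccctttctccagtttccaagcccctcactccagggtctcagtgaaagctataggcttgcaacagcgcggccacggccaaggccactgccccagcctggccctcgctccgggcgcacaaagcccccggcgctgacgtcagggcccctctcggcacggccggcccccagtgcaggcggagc

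These windows held 1 match for Astn1, 149 bases before its start site, and none for Dynlt3 or Gpm6b. Of 7763 tested genes with a RefSeq window, 11.8% had a match in at least 1 window, against 15 of 77 genes (19.5%) separated higher and 11 of 156 (7.05%) separated lower. Over all 27025 genes of that table the share was 16.8%. These shares were not tested. A match of letters is not a site of binding, and no match says only that these letters are not in these 250 bases, not that sites are missing elsewhere or under another motif.

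Ctnnb1, which encodes β-catenin, did not differ between the labelled sides by more than the spread of lines. Its brightest probe set had intensities of 34368 in 13d, 31799 in 10d, 31844 in 14d and 30254 in 9v, with a log2 difference of 0.09 (SE 0.22) and an adjusted p of 0.916 by limma. Its other probe sets had 11288 and 10337 against 10363 and 9968, and 7978 and 7210 against 7338 and 7405. Whether these probes also read the transgene is not given in the sources used here, so RNA of the endogenous gene and of the transgene cannot be told apart.

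The widest gaps were mostly those of genes that were bright on one side and near or under 32 on the other. Klf14, a Krüppel-like transcription factor, was at 1521 in 13d and 2178 in 10d and at 13 in both WT lines. This was at least 56.9-fold higher in bcat* lines, with the WT lines taken at 32 and so without spread, and its adjusted p was 0.0721 by limma. Astn1, a neuronal membrane protein of the astrotactin family, was at 1332 and 1896 in bcat* lines and at 5 in both WT lines, at least 49.7-fold higher. Both genes were thus present in both bcat* lines and not above 32 in either WT line.

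Pde7b and Rapgef3 act in cAMP signalling, as a phosphodiesterase that degrades cAMP and as an exchange factor that cAMP activates. Pde7b was at 1451 in 13d and 1937 in 10d and at 49 and 4 in 14d and 9v, with a gap of 29.6-fold. Rapgef3 was at 799 and 554 against 10 and 19, at least 20.8-fold higher, and 3 of its 4 probe sets at 32 or more were separated. The fourth had intensities of 53 and 49 against 25 and 46. For S100a16, a calcium-binding protein, the lines were at 704 and 678 against 6 and 6, at least 21.6-fold higher, and its other probe set gave 517 and 515 against 7 and 7.

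In their brightest probe sets, Klhdc10 and Id4 were well above 32 in all 4 lines, so that the folds of those probe sets do not rest on the floor. Klhdc10, which has kelch repeats, was at 9606 in 13d and 8684 in 10d and at 355 and 467 in 14d and 9v. This was a log2 difference of 4.49 (SE 0.26) with an adjusted p of 0.0879 by limma. The 3 probe sets of Klhdc10 had gaps of 17.6-fold to 49.0-fold, the widest from one at 32 and 30 in WT lines. Id4, an inhibitor of basic helix-loop-helix transcription factors, was at 4049 and 3505 against 237 and 161, a 19.3-fold difference. Its 3 probe sets had gaps of 8.56-fold to 28.2-fold. The narrowest was from one at 11 and 6 in WT lines, both raised to 32. In both genes the lines of a side lay within 2-fold in the brightest probe set.

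Of the other higher genes with wide gaps, Rtp4 and Mrgprb1 were alike in both bcat* lines. Rtp4, an interferon-induced chaperone of receptors, was at 575 and 533 against 11 and 11, and Mrgprb1, a receptor of the Mas-related family, was at 478 and 672 against 6 and 6. Cyp4b1, a cytochrome P450 enzyme, was at 995 and 628 against 33 and 63. Casp1, the caspase of the inflammasome, and Apod, a lipid carrier, were separated but uneven between bcat* lines. Casp1 was at 3221 in 13d and 337 in 10d with 22 in both WT lines, and Apod was at 358 in 13d and 1133 in 10d with 10 and 13 in WT lines.

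Among the genes lower in bcat* lines, Gpm6b, a membrane proteolipid known from brain and bone, had the widest gap. It was at 43 in 13d and 6 in 10d and at 1879 and 1677 in 14d and 9v, with a gap of 39.0-fold, and its other probe set had 21 and 5 against 1202 and 1158. Atp6v0d2, which encodes a subunit of the pump that acidifies organelles, was at 22 and 11 in bcat* lines and at 1458 and 1122 in WT lines, at least 40.0-fold lower in bcat* lines. Nipal1, a magnesium transporter, was at 32 and 5 against 1252 and 1047. Each of these genes had 2 probe sets at 32 or more in some line, and both were separated.

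Cd302, a C-type lectin receptor, was at 44 and 8 in bcat* lines against 1021 and 839 in WT lines. Rcn1, a calcium-binding protein of the endoplasmic reticulum, was at 133 and 18 against 2283 and 1646. Cavin1, needed for caveolae, was at 27 and 8 against 380 and 496. These genes were detected in both WT lines at levels that lay within 2-fold of each other.

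Ddah2, an enzyme that degrades methylated arginine, Unc119, a carrier of lipidated proteins, Lmo2, a LIM-domain factor of transcription, Fam217b and Pgap4, an enzyme of the GPI anchor, were all under 32 in both bcat* lines. Their WT levels were between 255 and 726, and their folds were at least 8.63-fold to at least 17.5-fold lower in bcat* lines. Cdh13, a cadherin without a cytoplasmic part, was at 39 and 38 in bcat* lines, at 3165 in 14d and at 313 in 9v. Its 3 probe sets were all separated, but the WT lines lay further from each other than 9v from the bcat* lines.

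**Figure D3:**
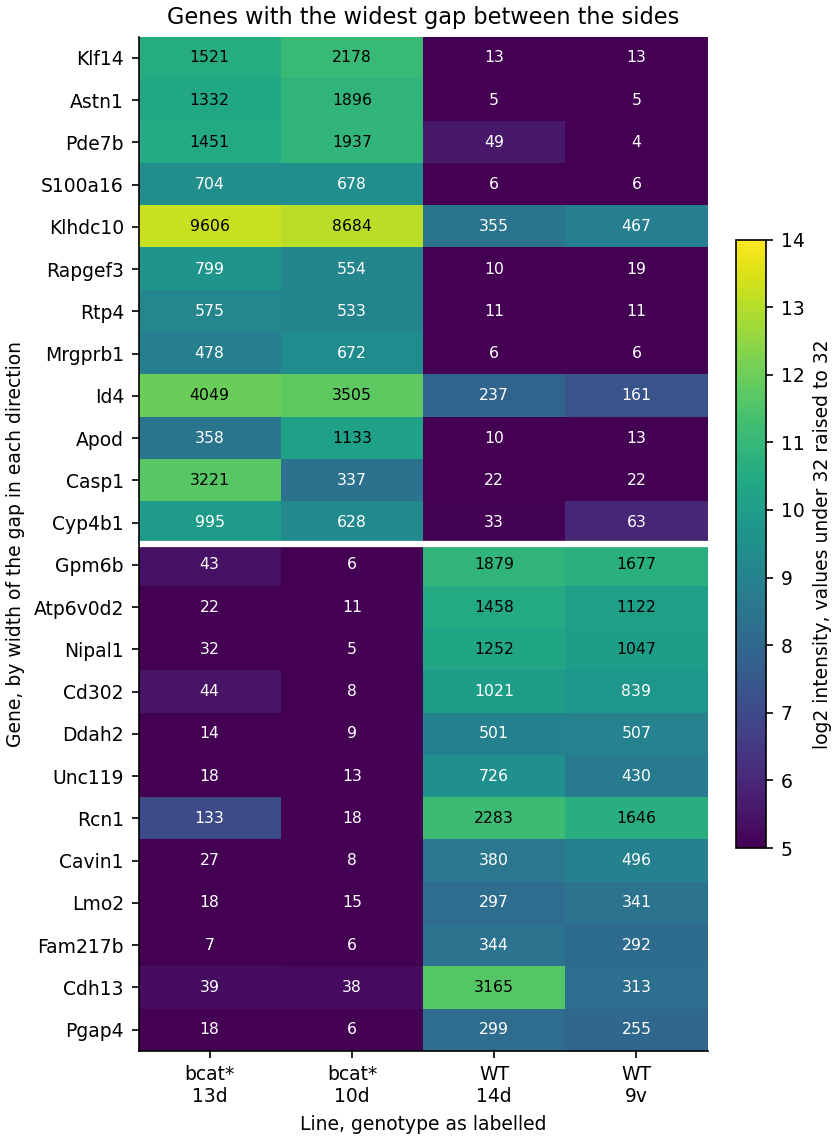
Intensity of the 12 named genes with the widest gap in each direction (rows) in the 4 lines (columns, genotypes as labelled). Genes whose probe sets at 32 or more did not all set the sides apart in the same direction, such as Itga4, and unnamed loci are left out. The deposited intensity is written in each cell, and the colour gives log2 intensity with values under 32 raised to 32. The upper block is higher in bcat* lines and the lower block higher in WT lines, with WT levels of 4 to 467 in the upper and bcat* levels of 5 to 133 in the lower block.

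Genes that were bright in every line rarely separated the sides. Of 2710 genes at 1000 or more in all 4 lines, 11 were separated (0.406%), 2 of them higher and 9 lower in bcat* lines. Dynlt3 had the fourth widest gap of those 9, while 108 of all genes separated lower had a wider gap than Dynlt3. This set was chosen by its brightness after the values were known, and its counts are a description.

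The 3 bright lower genes with a wider gap than Dynlt3 were Ctsc, Cyba and Ltbp3. Ctsc, the lysosomal protease cathepsin C, was at 1093 in 13d and 1308 in 10d and at 6384 and 5630 in 14d and 9v, with a gap of 4.30-fold. Cyba, a subunit of the NADPH oxidase, was at 1052 and 1030 against 9084 and 3541, and Ltbp3, which binds latent TGF-β, was at 1462 and 1416 against 5422 and 4615. In Ctsc and Ltbp3 the lines of a side lay close together, whereas for Cyba 14d was well above 9v.

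The 5 with a narrower gap were Sgce, Tlcd4, Cited1, Cttnbp2 and Chchd6. Sgce, an imprinted gene for ε-sarcoglycan, was at 1649 and 1218 against 5172 and 3927. Cited1, a transcriptional cofactor known from pigment cells, was at 2563 and 3374 against 8151 and 7309. Tlcd4, a membrane protein, was at 3225 and 3736 against 11371 and 8688. Cttnbp2 and Chchd6 had gaps of 2.10-fold and 2.02-fold, close to the limit of 2-fold.

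Mcoln3 and Tuba4a were the bright genes higher in bcat* lines. Mcoln3, a cation channel of endosomes and lysosomes, was at 10781 in 13d and 7197 in 10d and at 1877 and 2683 in 14d and 9v, a 3.92-fold difference, and its other probe set had 6599 and 4102 against 891 and 1487. Tuba4a, an α-tubulin, was at 8284 and 5704 against 2404 and 2618, with 2 of its 3 probe sets at 32 or more apart in this direction.

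**Figure D4:**
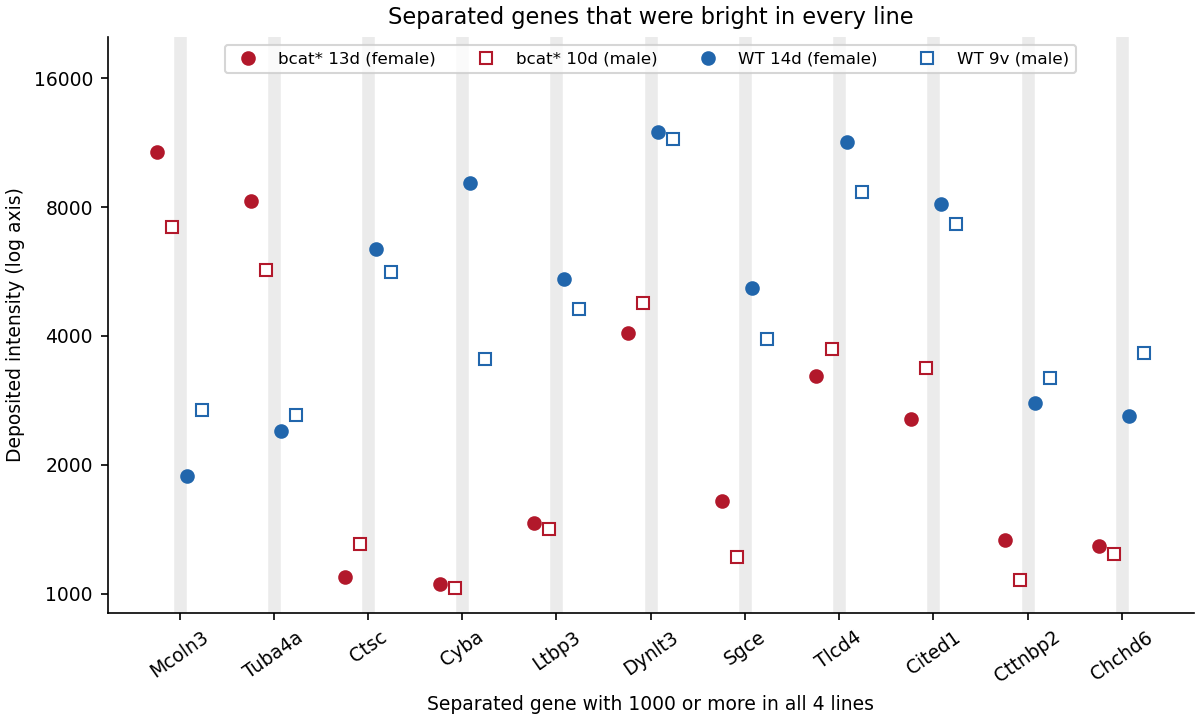
Deposited intensity (log axis) of the 11 separated genes that were at 1000 or more in all 4 lines, with red for labelled bcat*, blue for labelled WT, circles for female and squares for male lines. Dynlt3 is the brightest of the 9 lower genes in 14d and 9v, at 11963 and 11518, and Mcoln3 and Tuba4a are the 2 genes with both bcat* lines on top.

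Gene lists were read by how many members separated the sides, against 3.00% of all genes tested. At that share a short list holds few or no separated members, so a count of 0 in such a list is not read as a result about it. In all, 19 listed genes were separated, and limma called 0 of them. The median log2 difference over all genes tested was 0.01.

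Of 13 tested targets of Wnt signalling, 0 were separated, and their median log2 difference was -0.27. Axin2, a feedback inhibitor that β-catenin switches on in many cells, was at 126 and 44 in 13d and 10d and at 226 and 96 in 14d and 9v. The sides thus overlapped, while within each sex the labelled bcat* line was lower, by log2 differences of -0.84 (female) and -1.13 (male). Nkd1, another feedback inhibitor, was at 38 and 160 against 10 and 22, and Ccnd1, the cyclin of early G1, was at 13804 and 7593 against 15379 and 14265. Lef1 was at 20 and 12 against 85 and 8. No target in the list was thus set apart by 2-fold in either direction.

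Among 31 tested genes of Wnt transduction, Fzd6 was the 1 separated gene. This Wnt receptor was at 47 and 6 in bcat* lines against 208 and 210 in WT lines. Apc (1107 and 1119 against 1107 and 1037) and Gsk3b (3430 and 2528 against 1934 and 2401), genes of the complex that marks β-catenin for degradation, had gaps under 2-fold.

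No gene of the pigment lists was separated, in lists too short to show a share under that of all genes tested. Of 14 pigment genes, 17 melanocyte transcription factors and 8 receptors tested, 0 were separated, with median log2 differences of 0.06, 0.04 and -0.33. Tyr, the rate-limiting enzyme of melanin synthesis, was at 25134 and 29577 against 35711 and 31903, a difference of -0.31 with no overlap. Mitf, the master regulator of melanocytes, was at 25220 and 25382 against 23118 and 29002. Trpm1, which Mitf controls, was at 4521 and 11869 against 2181 and 6329, and in each side the male line was the higher one.

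The list used here for the formation and transport of lysosome-related organelles follows that of the study. It held 70 genes, whereas the article counts slightly fewer, and of the 63 tested Dynlt3 was the 1 separated gene. The median log2 difference of the list was 0.06. At least 2-fold between the male lines were 7 members, 2 higher and 5 lower in 10d, and at least 2-fold between the female lines were 8, 5 higher and 3 lower in 13d. Dynlt3 was the 1 member on both counts in the same direction, and 1 member went opposite ways.

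That member was Dnaic1, an axonemal dynein chain, at 1463 in 13d, 2044 in 10d, 80 in 14d and 4397 in 9v. Myo6, a myosin that moves towards the minus end of actin, was at 586 and 1354 in 13d and 10d against 415 and 467. It did not overlap, but its gap was under 2-fold. Rab31 was at 662 and 102 against 813 and 780, and Rab3d at 112 and 28 against 112 and 372, so that for both the low value of 10d was not shared by 13d. Mreg, a protein of melanosomes, was at 7898 and 8262 against 2246 and 10708, and its WT lines differed most.

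Dynlt3 was also the 1 separated gene of 9 tested subunits of cytoplasmic dynein, whose median difference was 0.05. The heavy chain Dync1h1 was at 1064 and 1670 against 997 and 1310. Dynlrb1, another light chain, was lower in both bcat* lines without reaching 2-fold, at 8062 and 8378 against 12187 and 11448.

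Acidification and lysosomal genes held separated members in both directions. Of 25 tested genes of acidification, Mcoln3 and Clcn5 were separated higher and Atp6v0d2 lower. Clcn5, a chloride and proton exchanger of endosomes, was at 132 and 190 against 61 and 66, a gap of exactly 2-fold. The other 22 members included the pump subunit Atp6v0d1, of the same family as Atp6v0d2, at 6686 and 6603 against 6199 and 5857. Of 24 lysosomal genes, Ctsc and Glb1 were separated lower, and Glb1, the lysosomal β-galactosidase, was at 496 and 551 against 1535 and 1286. Lamp1 and Lamp2, the main proteins of the lysosomal membrane, were at 13320 to 14536 and at 18702 to 20059 over the 4 lines.

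Of 16 tested interferon-induced genes, 5 were separated, all higher in bcat* lines. Of these 16, 8 were tested through bcat* lines alone, being under 32 in both WT lines, so that their direction followed from the filter, and no count or median of the list is read as a result. Besides Rtp4, the separated genes were Ifih1 and Ddx58, sensors of viral RNA, Bst2, which tethers virus particles, and Xaf1. Bst2 was at 1737 in 13d and 4816 in 10d and at 521 and 395 in WT lines. Xaf1 was at 419 and 2257 against 160 and 188, Ddx58 at 286 and 751 against 73 and 95, and Ifih1 at 112 and 203 against 21 and 28. A dimmer probe set of Ddx58 was at 14 and 88 against 13 and 13 and was not separated.

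In these 4 genes 10d lay above 13d, whereas Rtp4 was at 575 in 13d and 533 in 10d. For other members 13d was near 32 or between the WT lines. Usp18 was at 32 in 13d and 769 in 10d against 5 and 4, Oas1a at 37 and 568 against 10 and 10, and Ifit3 at 434 and 2286 against 724 and 322. Line 13d thus shared the higher levels of 10d at some of these genes and not at others. By their brightest probe sets, 0 of 10 tested MHC class I genes were separated, but dimmer probe sets of H2-D1 and Erap1 were. H2-D1, a class I chain, was at 2131 and 2786 against 2135 and 712 in the probe set used, whereas 3 of its 7 probe sets at 32 or more were separated, with gaps of 9.38-fold to 16.4-fold and intensities of 7 or 8 in both WT lines. The H2 genes are near-identical copies of each other, so which of them these probes read is uncertain. Erap1, a peptide-trimming enzyme, was at 136 and 128 against 53 and 73 in one probe set and at 141 and 140 against 12 and 28 in the other.

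At most cell cycle genes the 2 pairs of lines went opposite ways. Of 28 tested members 0 were separated, which is not read as a result beside the 3.00% of all genes tested. The median difference was 0.10. In the female pair 27 of 28 were higher in 13d than in 14d, with a median log2 difference of 0.79, and in the male pair 26 of 28 were lower in 10d than in 9v, with a median of -0.64. Mki67, a marker of dividing cells, was at 8293 in 13d and 3782 in 10d against 3565 in 14d and 6057 in 9v. Line 13d thus had the highest level of this gene and 14d the lowest.

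Inhibitors of the cell cycle were not separated in any of 10 tested genes. Cdkn1a, an inhibitor that p53 controls, was at 3093 and 3612 against 7186 and 5399, lower in both bcat* lines with a gap under 2-fold. Cdkn2a was at 39, 32 and 38 in 13d, 10d and 14d and at 184 in 9v, and Cdkn2b was at 508, 239 and 448 in 13d, 10d and 9v and at 28 in 14d. Each of the latter thus had 1 WT line apart from the other 3 lines.

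Of 10 tested integrin chains, Itga1 was separated higher, at 270 and 435 against 95 and 120, and Itga4, Itga9 and Itgb3 were separated lower. Itga4, a chain of a receptor for fibronectin, was at 4 in 13d and 62 in 10d and at 1852 and 583 in 14d and 9v, with 3 of its 4 probe sets at 32 or more apart by at least 2-fold. Itga9 was at 5 and 20 against 75 and 139 and Itgb3 at 31 and 9 against 67 and 94, both under 32 in both bcat* lines, so that they were tested through WT lines alone and their direction followed from the filter. Of 4 tested cadherins, Cdh13 was the separated one, and Cdh1 (272, 14, 16 and 12 in 13d, 10d, 14d and 9v) and Cdh2 (2823, 2422, 5458 and 2214) were not.

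The counts of the other lists stand beside the 3.00% of all genes tested and are not read as results about them. Of 9 genes tested from the list of imprinted genes, Sgce was separated. That list does not hold every imprinted gene, so it gives no count of imprinted genes among all separated genes. Peg3 was at 1207 in 10d and under 32 in the other lines. Grb10 was at 132 in 14d and between 2497 and 3377 in the others. Of 22 genes of TGF-β and BMP signalling and of 5 Hox genes tested, 0 were separated. Tgfb1, a ligand, was at 133 and 94 against 450 and 231.

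A glial marker was among the separated genes. S100b was at 3836 in 13d and 308 in 10d and at 5 and 58 in 14d and 9v, and its other probe set had 1648 and 65 against 3 and 8. Pmp22, a myelin protein, was at 3490 and 1646 against 1124 and 6. The summed intensity of the 8 glial markers was 9343 and 3686 in bcat* lines and 2692 and 983 in WT lines, while Mbp was at 7 or 8 in every line. That sum comes almost wholly from the 3 markers tested, S100b and Pmp22 among them. The other 5 were under 32 in every line, so the sum is not a measure of the list as a whole. The part of these markers in the other differences was not tested.

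**Figure D5:**
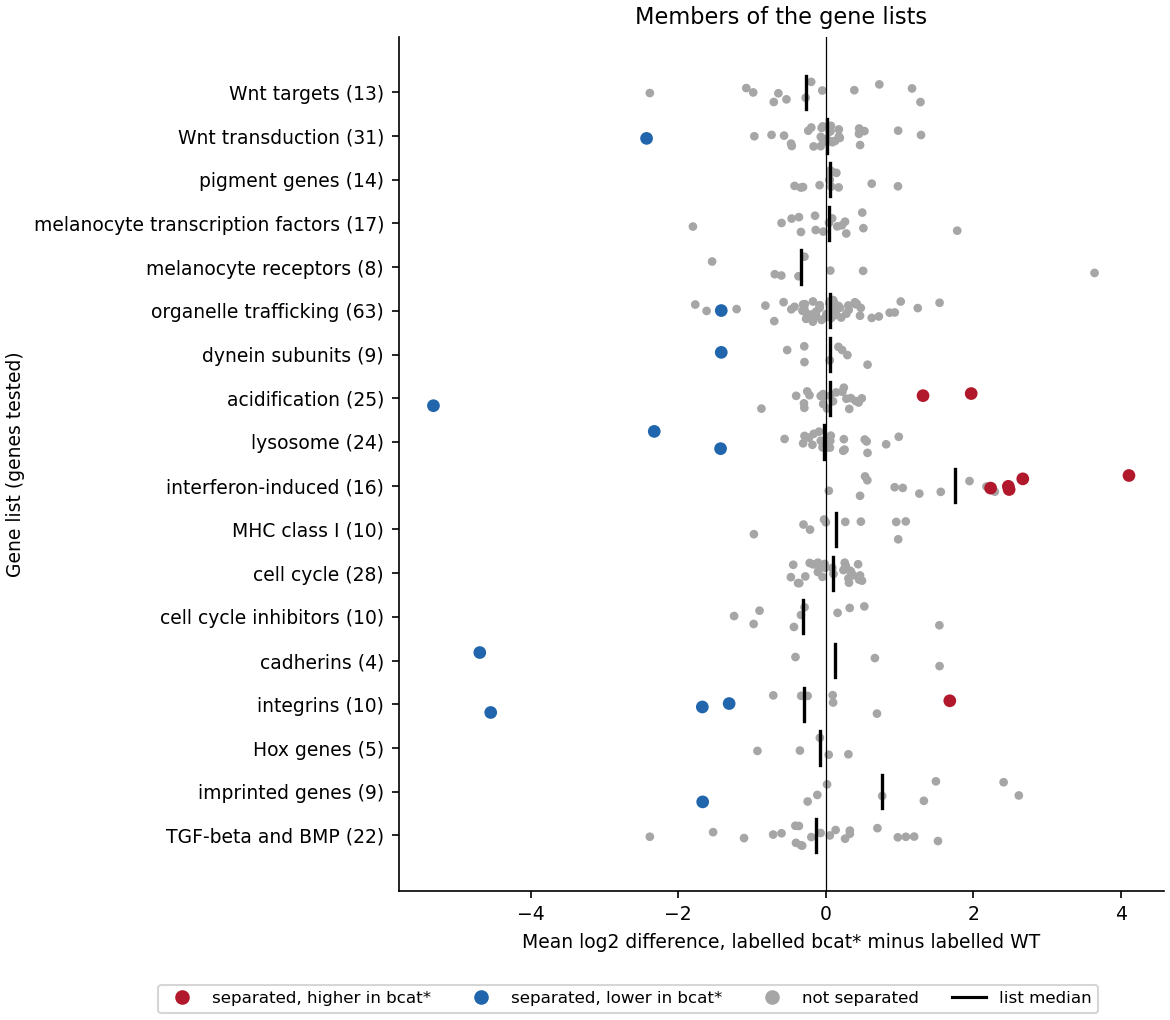
Mean log2 difference of labelled bcat* minus labelled WT (x axis) for each tested member of 18 gene lists (rows, with the number tested), with red and blue points for members separated by at least 2-fold and a black bar at the list median. Dynlt3 is the blue point of organelle trafficking and of dynein subunits, at -1.42, and the interferon-induced genes include 8 that were under 32 in both WT lines and so could not lie below 0.

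Among the separated genes outside these lists, the following were picked after their values were seen. Aldh1a3, which makes retinoic acid, was higher in bcat* lines, at 433 and 344 against 32 and 45, and all of its 3 probe sets agreed in direction. Dhrs3, which reduces retinal, was at 717 and 556 against 25 and 197. Scd1, which makes unsaturated fatty acids, was at 3101 and 2698 against 255 and 764, and Abca1, an exporter of cholesterol, was at 2570 and 3095 against 534 and 811. In each of these both bcat* lines lay above both WT lines.

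Cavin2, a partner of Cavin1 in caveolae, went the other way from Cavin1, at 8261 and 6208 in bcat* lines and at 6 and 1541 in WT lines. Of the Krüppel-like factors, Klf4 (1594 and 367 against 142 and 108) was higher in bcat* lines like Klf14, while Klf12 (8 and 21 against 172 and 289) and Klf13 (114 and 14 against 826 and 499) were lower. Families with members on both sides were thus present among the separated genes.

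Cdk6, a kinase of early G1, was lower in bcat* lines, at 63 and 16 against 1089 and 304. Mme, a membrane peptidase, was at 1095 in 13d and 15 in 10d against 3912 and 5006. Dbp, a factor of the circadian clock, was at 79 and 137 against 2929 and 653, and Ckb, the brain creatine kinase, was at 292 and 110 against 1463 and 822. Levels within a side differed by several fold in some of these genes, and the sides did not overlap.

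At the limit of 2-fold, the narrowest gaps inside it were those of Clcn5 and Fbxo31 (138 and 81 against 40 and 34) among the higher and of Sema4f (21 and 7 against 280 and 64) and Gpsm1 (479 and 419 against 960 and 1122) among the lower genes. The nearest genes outside it were Ahnak2 (2245 and 2971 against 831 and 1129) and Nt5c3 (653 and 409 against 1305 and 1406), both with a gap just under 2-fold. Genes on either side of this limit thus differed little in their gap.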

How the data were processed

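Total RNA of 4 mouse melanocyte lines was hybridised to Affymetrix arrays, 1 per line. The authors deposited 1 intensity per probe set, and the submitters' processing notes name GCRMA, which corrects background by probe sequence and normalizes between arrays. The version of GCRMA is not given in the sources used here, nor are further steps. Deposited intensities were integers between 2 and 84904 and were read as linear. As integers, dim values give coarse ratios, and precision is limited by having 4 arrays.

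Groups were those of the sample titles. Of 45037 probe sets, 34945 were listed with 1 gene in the platform annotation, 932 with several and 9160 were not listed, and the probe sets listed with 1 gene alone were used. Each gene took its probe set with the highest mean log2, values under 32 were raised to 32, and genes at 32 or more on at least 1 array were fitted with limma (lmFit and eBayes, no covariate), with Benjamini-Hochberg adjustment and a threshold of 0.05. Residual degrees of freedom were 2. Separation by at least 2-fold was counted without a test. Folds written as "at least" set a side that was under 32 in both lines at 32.

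The gene lists, the comparison and the genes named were chosen with earlier results of these data known. Genes named were Dynlt3, Ctnnb1 and sex-linked genes, the 12 widest gaps in each direction with all probe sets at 32 or more in the same direction and without unnamed loci, and up to 5 separated members of each list, or 3 with the largest difference. Some of them are not given in the text, and others were added after their values were seen, to show members that were not separated or genes outside the lists. The fit and the count of separated genes were run on simulated data with 200 changed genes, all well above 32. The simulated lines had less spread than these arrays, whose median residual SD was 0.336. That run checks the code and does not show which changes these arrays could detect. Alternatives were other probe set rules, normalizations, floors, filters, folds, a sex block, another variance model, the genotypes of the article and leaving out each line. R 4.3.3, limma 3.58.1, Python 3.11.15, NumPy 2.4.6, pandas 2.3.3 and matplotlib 3.10.9 were used.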

Additional observations from a re-analysis of the deposited data

Results flagged for a closer look

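A few results had opposite signs in the pair of female lines (13d over 14d) and the pair of male lines (10d over 9v). They are given as log2 differences on values raised to 32. For Aurka, Cdkn2a, Jag1, H2-D1 and Gpr143 the difference in 1 of the pairs was near 0, so that the lines differed in the other pair alone. With 1 array a line these differences between pairs were not tested, and the genotypes are those of the labels. The cell cycle list had a median of 0.79 in the female and -0.64 in the male pair, and Aurka, a mitotic kinase of this list, had 0.97 and -0.0385. Cdkn2b had 3.99 and -0.91, and Cdkn2a 0.0375 and -2.52. S1pr3, a receptor for sphingosine 1-phosphate, had -0.73 and 8.02, with an intensity of 4 in 9v against 6988 to 11590 in the other lines. Jag1, a ligand of Notch, had -0.0431 and 2.38, and H2-D1, an MHC class I chain, had -0.0027 and 1.97 in its brightest probe set. For H2-D1 that female difference is one of 2131 against 2135, and 5 of its other probe sets were higher in both pairs, 3 of them separated by at least 2-fold. Gpr143, a receptor of melanosomes, had -0.89 and 0.0476, and Postn, a fibroblast marker near the floor, had 0.93 and -0.16.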

How the results depend on the processing

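The adjusted p of Dynlt3 stayed above 0.05 under every alternative run, and its direction turned with the exchanged genotypes alone. Its log2 difference was between -1.30 and -1.53 when each line was left out, and 0.14 with the genotypes of 13d and 14d exchanged, and its adjusted p by limma was between 0.339 and 0.992 over the alternatives. No gene was called by limma in any alternative except without a filter on dim genes. That fit called 9 genes, with Ddah2 and S100a16 among them. In it 8798 of 18193 genes were at the floor on all 4 arrays, so that by construction they had no spread. A block for sex, which pairs 13d with 14d and 10d with 9v, called 0 genes.

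With the genotypes exchanged, 38 genes were separated higher and 69 lower, and 3 of the listed genes. Averaging all probe sets of a gene left 120 genes separated lower, and 172 of the 282 genes (61.0%) were separated in that setting too. A 1.5-fold limit gave 256 higher and 408 lower genes, and a 3-fold limit 38 and 66. Leaving out each line in turn, which sets 1 line against 2 and assumes that the lone line varies like the others, gave 229 to 562 higher genes, 333 to 530 lower genes and 29 to 42 listed genes. The low counts of higher genes came without 14d and those of lower genes without 10d.

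Other normalizations, floors and filters left the counts of separated genes within 1.5 times. Of single named genes, Hoxa5 was at 0.45 without the probe sets of possible cross-hybridization, and a direction turned when a line was left out for Col1a2 (-1.79 to 0.66), Gpr143 (-1.03 to 0.18), Postn (-0.0365 to 0.81), Cenpa (-1.02 to 0.0775), Kit (-0.64 to 0.0624), Cdkn2b (-0.36 to 3.44) and S1pr3 (-0.60 to 7.90). None of these was separated.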

Other observations

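Separated genes were also looked at by their place along the chromosomes, from the gene order in RefSeq GRCm38.p6, in which 9389 tested genes were placed. Of 282 separated genes, 12 (4.26%) lay beside a tested gene separated in the same direction, and 8 beside one separated in the other. Over all genes tested, 1.02% were separated higher and 1.98% lower, and a gene has a neighbour on either side. The share of neighbours that this would give was not computed, so these counts are not read as a result about position. The 12 formed 6 pairs of neighbours. Higher in bcat* lines were Hsd11b1 with G0s2, Apod with Bdh1, Klhdc10 with Tmem209, Lipt2 with Pgm2l1 and Plvap with Bst2. Lower were D630045J12Rik with Zc3hav1l.

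Hsd11b1, which activates glucocorticoids, was at 7144 in 13d and 5587 in 10d and at 658 and 1899 in 14d and 9v, and its neighbour G0s2, an inhibitor of triglyceride breakdown, was at 695 and 483 against 5 and 217. In both genes 14d was the lowest line. Tmem209, the neighbour of Klhdc10, was at 2495 and 2068 against 669 and 978, a narrower gap than that of Klhdc10. Bdh1, a mitochondrial enzyme of ketone bodies, was at 1657 and 2215 against 4 and 290, and its neighbour Apod was under 32 in both WT lines.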
